A study of Mus musculus with 4 samples.

Results

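The G2/M and mitosis genes are a set of 44 mouse genes whose products carry a cell from the end of DNA replication through division. They were listed by gene name for their known roles, and 43 of them were represented on the arrays by a probe set with a single gene symbol, of 18193 such genes in all. Ccnb1, which encodes cyclin B1, has no intensity here because no probe set with its symbol alone was found in the annotation used. Probe sets with several symbols were not searched for it, and its promoter is counted below. The genes were followed in tumours of the mouse melanoma cell line iNRAS-475, whose NRAS is inducible by doxycycline, so that taking the drug away turns it off. NRAS is a RAS protein, and signals to cell division through the RAF, MEK and ERK kinases.

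All tumours were grown by injecting the cells into the dermis of nude mice, a host strain that lacks a normal thymus, and all mice drank water with 2 mg/ml doxycycline until the tumours measured 200 to 500 mm3 at 6 weeks. One tumour was then taken while the drug was still given, which is the control, and 1 tumour each was taken 24, 48 and 72 h after the drug was withdrawn. The labels give neither the allele of the inducible NRAS nor the promoter that drives it, and not the age or sex of the mice. All arrays come from a single cell line. Each condition has 1 array, so no value has a replicate error, no test between conditions was made, and tumour, animal and condition cannot be told apart.

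In dividing cells, the genes of this group are transcribed together late in the cycle. Cyclin A and cyclin B bind CDK1 and drive entry into mitosis, the Polo and Aurora kinases build the spindle, the spindle checkpoint holds back division until chromosomes are attached, and the anaphase-promoting complex (APC/C) then destroys cyclins and securin. Their transcription is known to depend on a short promoter element, the cell cycle genes homology region (CHR), which the MuvB complex binds. MuvB acts with the RB-like proteins in the DREAM repressor in resting cells, and with B-MYB and FOXM1 as an activator in cycling cells. CCAAT boxes, bound by NF-Y, are the other known element of such promoters.

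The promoters of the group carried both elements more often than those of other genes. RefSeq-derived promoters (build GRCm38.p6), from 250 bases before to 50 bases after the transcription start, were matched for 37 of the 44 genes. The place of the start in the window was set by its most common offset from the annotated gene start. This offset was found in 74.7% of genes with a single promoter. In other genes, among them Kif2c, Cdca3 and Aurka, the start used lies away from the annotated gene start, so distances are less sure. The CHR letters TTTGAA, on either strand, were found in 26 of these 37 genes (70.3%), against 14.4% of the 10770 genes kept on the arrays that had a promoter and 20.2% of all 27025 genes with one. Within 50 bases of the start the letters were found in 24 of 37 (64.9%), against 3.78% of genes kept on the arrays. In S phase genes, a list of replication genes, they were found there in 1 of 26 (3.85%). The group was not alone in this: other mitosis genes, a list of further genes of the same processes, had the CHR letters in 28 of 51 (54.9%), and in 24 of 51 (47.1%) within 50 bases of the start. The letters CCAAT, on either strand, were found in 28 of the 37 genes (75.7%), against 42.0% of the genes kept on the arrays, and in 16 of 26 S phase genes (61.5%). Both were present in 23 of the 37 genes (62.2%), against 5.63% of the genes kept on the arrays. Of the other mitosis genes, 70.6% held CCAAT and 41.2% held both. In 1 of the 40 promoters of these 37 genes the letters of both overlapped. These are matches of letters and not measured binding sites. Median GC content was 59.0% in the group's promoters, against 60.2% in those of the genes kept on the arrays.

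The stretches around the CHR letters are shown for 6 of the genes with this element whose intensity lay far from the control, and for Cdk1, to show the element in its setting. Each is on the strand of its gene, with the match shown in capitals, as TTTGAA or its reverse complement TTCAAA. Where a gene had several matches, 1 within 50 bases of the start is shown, or both in Mki67. The Anln stretch also holds the other match of that gene, TTCAAA, left in lower case.
Mki67, chr7:135716478-135716507, minus strand: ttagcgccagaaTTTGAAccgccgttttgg
Mki67, chr7:135716460-135716489, minus strand: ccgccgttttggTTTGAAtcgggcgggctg
Ube2c, chr2:164769888-164769917, plus strand: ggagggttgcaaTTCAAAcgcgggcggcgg
Top2a, chr11:99024195-99024224, minus strand: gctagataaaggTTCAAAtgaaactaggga
Anln, chr9:22389161-22389190, minus strand: tgaaattcaaatTTTGAAcggccgtggtag
Ccnb2, chr9:70421533-70421562, minus strand: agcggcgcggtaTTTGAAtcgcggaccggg
Plk1, chr7:122159453-122159482, plus strand: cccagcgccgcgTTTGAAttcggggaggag
Cdk1, chr10:69352910-69352939, minus strand: taccgcggcgagTTTGAAactgctggcact
Counted from the start base as 1, with the base before it as -1, the first base of these letters lay at -116 and -98 in Mki67, -29 in Ube2c, -23 in Top2a, 29 in Anln, 5 in Ccnb2, 31 in Plk1 and -15 in Cdk1. Of the matches shown, those of Mki67 alone lie further than 50 bases from the start.

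The 250 bases before the start are shown for 3 genes that had both elements there and whose stretch does not run into the annotated gene, with CHR and CCAAT letters (CCAAT or its reverse complement ATTGG) in capitals.
Ube2c, chr2:164769679-164769928, plus strand: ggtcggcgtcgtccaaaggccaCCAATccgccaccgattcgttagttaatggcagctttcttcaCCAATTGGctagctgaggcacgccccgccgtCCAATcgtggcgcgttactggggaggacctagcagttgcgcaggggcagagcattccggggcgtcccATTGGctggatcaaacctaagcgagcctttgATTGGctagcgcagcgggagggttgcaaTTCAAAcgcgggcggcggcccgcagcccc
Ccnb2, chr9:70421555-70421804, minus strand: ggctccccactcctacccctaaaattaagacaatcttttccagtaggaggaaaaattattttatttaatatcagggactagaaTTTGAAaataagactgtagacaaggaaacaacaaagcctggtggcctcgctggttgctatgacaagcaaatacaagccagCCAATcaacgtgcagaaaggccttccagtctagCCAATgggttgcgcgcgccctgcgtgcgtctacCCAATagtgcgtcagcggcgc
Cdk1, chr10:69352913-69353162, minus strand: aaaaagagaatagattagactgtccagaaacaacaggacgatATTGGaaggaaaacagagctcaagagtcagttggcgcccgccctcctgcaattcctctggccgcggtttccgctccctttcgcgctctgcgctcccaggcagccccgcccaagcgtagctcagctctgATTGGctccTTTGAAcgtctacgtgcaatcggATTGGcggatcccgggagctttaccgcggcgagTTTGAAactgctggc
Ube2c held 6 matches to CCAAT in this stretch, of which 2 share bases in the run CCAATTGG, and 1 to the CHR. Ccnb2 held 3 and 1, and Cdk1 held 3 and 2.

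**Figure D1:**
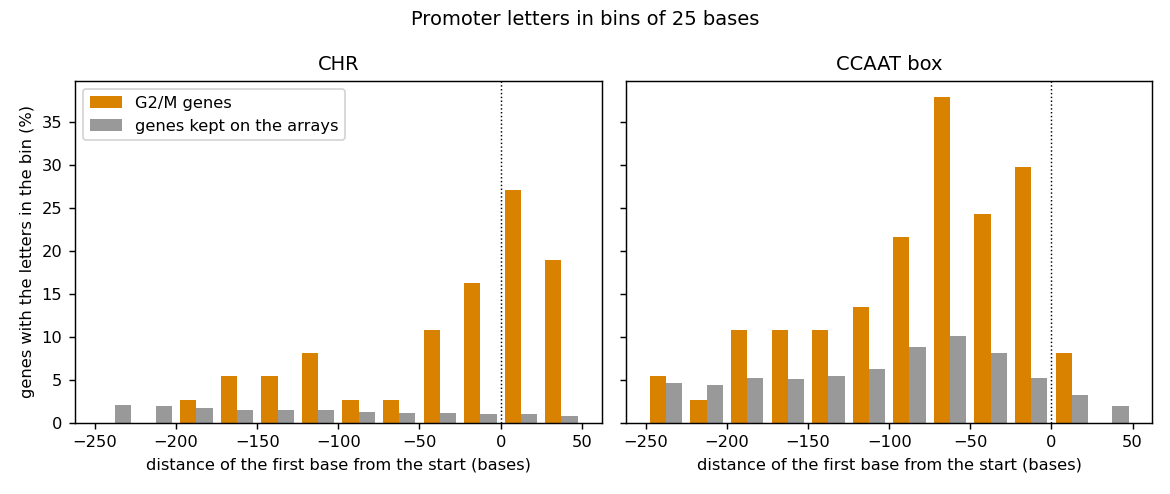
Share of genes (y axis, percent) whose promoter holds the CHR letters TTTGAA (left) or CCAAT (right), on either strand, by the distance of the first base from the transcription start (x axis, bins of 25 bases), for the 37 G2/M genes with a promoter (orange) and the 10770 genes kept on the arrays that have one (grey). The highest CHR bin of the G2/M genes is the first after the start, at 27.0% against 1.07%.

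Median intensity over all probe sets was 33.4 on doxycycline and 33.3, 34.0 and 33.8 at 24, 48 and 72 h. Precision is limited by there being 4 arrays in all. The brightest probe set of mouse Nras read 163, 256, 163 and 163 on doxycycline and at 24, 48 and 72 h, but whether it detects the inducible NRAS is unknown, so it does not check the labels. Of 10 melanocyte markers, 7 were kept: Sox10, a transcription factor of the lineage, was bright, at 3771 in the control, whereas Mlana, Tyr and Tyrp1, which mark pigmented melanocytes, were too dim to be kept on the arrays, with intensities of 13.5 to 25.2. The 10 melanocyte markers summed to 4161, 3954, 5128 and 4411 on doxycycline and at 24, 48 and 72 h. Most of each sum was Sox10, at 3771, 3613, 4681 and 3844. Of the 10 markers, 2, 4 and 5 were above the control at 24, 48 and 72 h, against 49.0%, 45.3% and 46.8% of the genes kept. Pmel, a pigment organelle gene, read 73.1, 49.8, 103 and 199.7. Mitf, also of this list, was above the control at each time, at 50.3, 56.5, 93.1 and 115. Dct and Slc45a2 were below the control at each time, at 34.7, 25.8, 27.0 and 25.7 and at 83.8, 70.4, 72.5 and 73.4. Several markers of other cells were highest at 72 h. Summed over each marker list, intensities on doxycycline and at 24, 48 and 72 h were 376, 679, 304 and 4681 for the 10 skeletal muscle markers, 673, 340, 957 and 4051 for 6 of 8 adipocyte markers, 16846, 17400, 36252 and 67038 for the 8 fibroblast markers and 3777, 7063, 5787 and 11613 for the 8 macrophage markers. At 72 h 8 of 10 muscle, 6 of 6 adipocyte, 7 of 8 fibroblast and 8 of 8 macrophage markers were above the control, against 46.8% of the genes kept. At 24 h these counts were already 8 for macrophage markers, but 5 for muscle, 0 for adipocyte and 3 for fibroblast markers, against 49.0%. Endothelial markers summed to 479, 450, 471 and 833, while sums of lymphoid markers stayed between 404 and 440 and those of keratinocyte markers between 267 and 286. No marker was at 0 on any array. The 43 G2/M genes summed to 4739, 5382, 4334 and 4357. Fewer tumour cells, fewer dividing cells and less RNA per cell cannot be told apart in such bulk samples, and the part that other cells play in the values below was not tested.

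Differences are given as the array off doxycycline minus the control on the scale log2(intensity + 32), which shrinks the differences of dim genes. A gene was kept if its mean intensity reached the 40th percentile of probe sets, 24.9, which left 13522 genes and 40 members of the group. Bub1, a checkpoint kinase, Kif20a, a kinesin of cytokinesis, and Ect2, an exchange factor that starts cytokinesis, were too dim to be kept and read 20.4 to 24.3 (Bub1 and Kif20a) and 11.9 to 14.8 (Ect2) over the 4 arrays.

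No kept member of the group differed by 1, which is 2-fold on this scale, between any pair of arrays. Of the genes kept, 0.266% were higher and 0.0666% lower by at least 1 at 24 h than in the control, 0.754% higher and 1.04% lower at 48 h, and 2.29% higher and 1.63% lower at 72 h. For 48 h against 24 h these shares were 0.569% and 1.01%, for 72 h against 48 h 0.917% and 0.214%, and for 72 h against 24 h 1.97% and 1.85%. The range over the 4 arrays was at least 1 for 0 of 40 members, against 5.47% of the genes kept, and it was at most 0.67, in Mki67. The median range was 0.29 in the group, against 0.25 in all genes kept. The 24 h array was the most frequent peak: 22 of 40 members (55%) had their highest intensity on the 24 h array, against 22.1% of the genes kept. The control was highest for 10 members (25%), against 23.9% of the genes kept. The 48 h array was highest for 4 members (10%), against 17.1%, and the 72 h array for 3 (7.5%), against 26.9%, and 1 member was tied.

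At 24 h off doxycycline 28 of 40 members were above the control (70.0%), against 49.0% of the genes kept, and 10 were below it, against 43.0%. The median difference was 0.13, against 0.00 over all genes kept. Only Mki67 and Top2a were higher by at least 0.5 (2 of 40, against 2.17% of the genes kept), and no member was lower by 0.5 (against 0.932%). At 48 h 13 members were above the control, against 45.3% of the genes kept, and 23 below it, against 45.5%. The median was -0.05, no member was higher by at least 0.5 (against 4.51%), and Anln, Ube2c and Cdc25c were lower by at least 0.5 (3 of 40, against 4.75%). At 72 h 15 members were above, against 46.8%, and 21 below, against 43.7%, with a median of -0.01. No member was higher by 0.5 (against 8.32%), and Ube2c alone was lower by 0.5 (1 of 40, against 5.52%). The 3 comparisons share the control array.

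**Figure D2:**
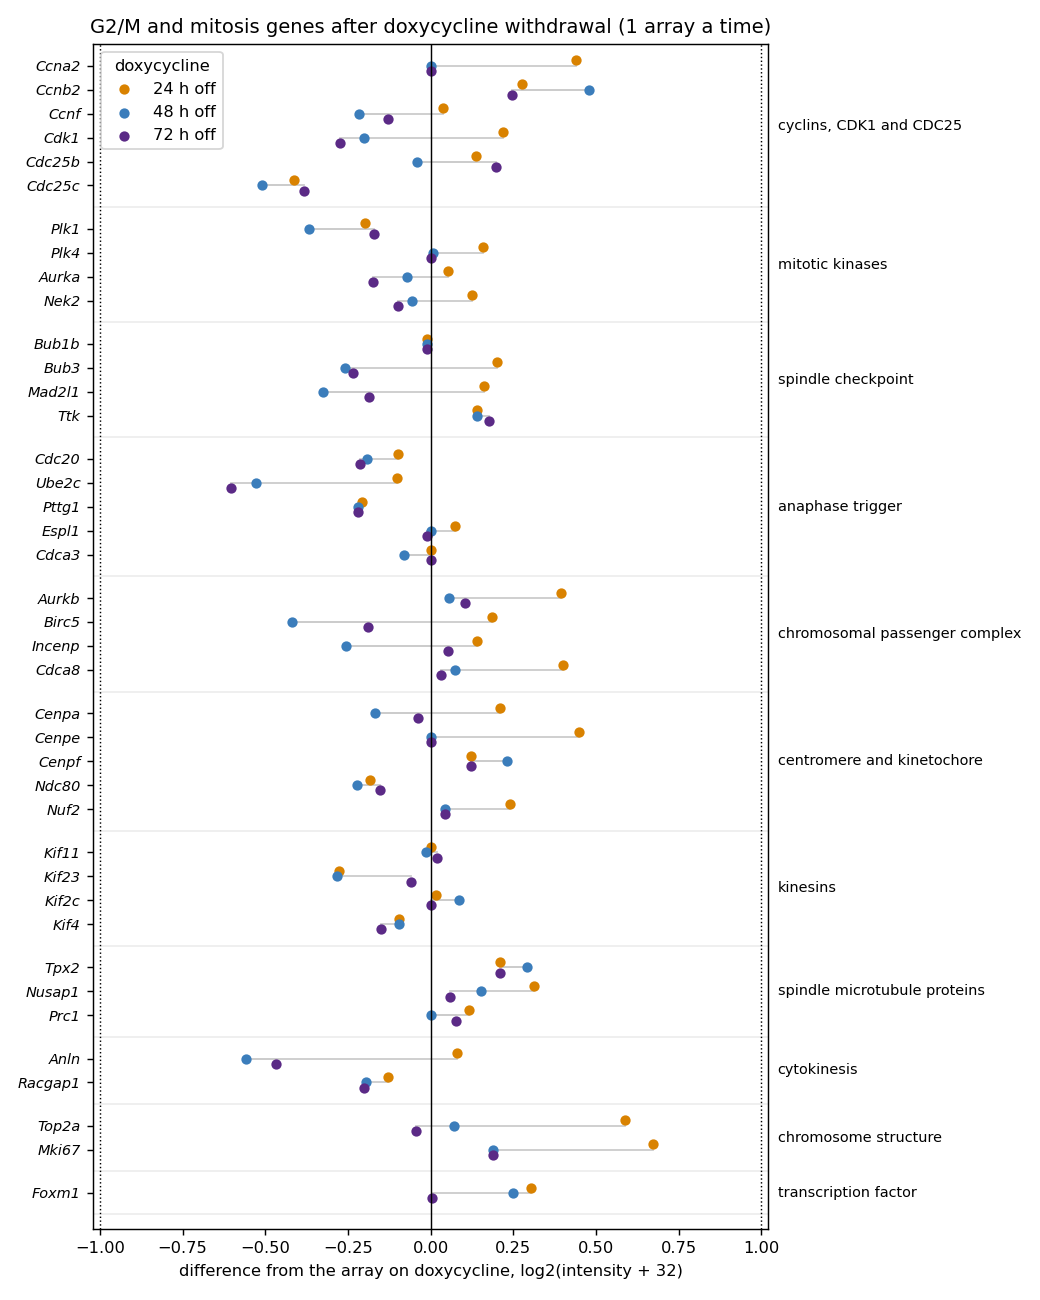
Difference from the control array (x axis, log2(intensity + 32)) for each of the 40 members kept (y axis), grouped by role, at 24 h (orange), 48 h (blue) and 72 h (purple) off doxycycline, with 1 array per time. Dotted lines mark a difference of 1 in either direction. No point reaches them, and most orange points lie right of 0.

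The steps between arrays off doxycycline do not use the control. From 24 to 48 h 33 of 40 members were lower at 48 h (against 44.3% of the genes kept) and 4 were higher (against 44.8%), with a median of -0.15. Anln, Birc5 and Top2a were lower by at least 0.5 (3 of 40, against 5.66%), by 0.64, 0.60 and 0.52, and none was higher by that much (against 2.87%). From 48 to 72 h 17 were higher and 17 lower at 72 h (against 47.1% and 39.4%), with a median of 0.00, and none was higher (against 3.55%) or lower (against 1.48%) by 0.5. At 72 h 29 members were below and 7 above their level at 24 h (against 40.8% and 46.5%), the median was -0.14, and Top2a, Anln and Ube2c were lower by at least 0.5 (3 of 40, against 6.71%), while none was higher by that much (against 6.40%). The 24 h array is shared by the first and the last of these steps, and by the comparison of 24 h with the control. The count of members with their peak at 24 h rests on it too. So the rise at 24 h and the fall after it are not separate observations.

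Mki67 and Top2a, whose products act on chromosomes themselves, had the largest differences at 24 h. Mki67 encodes Ki-67, the protein that coats mitotic chromosomes and is used to mark proliferating cells. Its only probe set read 135, 235, 159 and 159 on doxycycline and at 24, 48 and 72 h. That is a difference of 0.67 at 24 h and of 0.19 at both later times, so all 3 arrays off doxycycline were above the control. Top2a encodes topoisomerase II alpha, which untangles sister chromatids. Its brightest probe set read 183, 291, 193 and 176, a difference of 0.59 at 24 h, 0.07 at 48 h and -0.04 at 72 h. Its other probe sets were dim and differed by -0.05 and 0.09 at 24 h.

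Foxm1, the transcription factor that works with MuvB at these promoters, was above the control at 24 and 48 h and level with it at 72 h. It read 186, 237, 227 and 186, a difference of 0.30 at 24 h, 0.25 at 48 h and 0.00 at 72 h. A second probe set above the level limit was higher by 0.22, 0.17 and 0.14.

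Among the cyclins and the regulators of CDK1, Ccna2, Cdk1 and Ccnb2 were higher at 24 h and then took different courses. Ccna2, cyclin A2, read 165, 236, 165 and 165, with the same deposited value on 3 arrays, and its second probe set was also highest at 24 h, by 0.22. Cdk1, the mitotic kinase, read 387, 456, 332 and 315, with differences of 0.22, -0.20 and -0.27, so that the 24 h array was the highest and the 72 h array the lowest. Ccnb2, cyclin B2, read 60.9, 80.6, 97.5 and 78.2 and was the member furthest above the control at 48 h, by 0.48. The phosphatases that activate CDK1 did not move together: Cdc25b differed by 0.14, -0.04 and 0.20. Cdc25c read 71.4, 45.7, 40.7 and 47.3 in a probe set of the _x_at kind, whose probes can match other genes, and its other probe set differed by -0.02, 0.00 and 0.02. Ccnf, an F-box cyclin that marks proteins for destruction, differed by 0.04, -0.22 and -0.13.

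In the brightest probe sets of 4 mitotic kinases, Plk1 lay furthest from the control. The kinase genes Cdk1, Aurkb and Ttk are given under other roles. Plk1, which drives entry into mitosis and spindle assembly, was below the control on every array off doxycycline, with 72.5, 59.1, 49.1 and 60.9, a difference of -0.20, -0.37 and -0.17. Plk4, which starts centriole duplication, read 26.3, 33.1, 26.7 and 26.4, and its second probe set above the level limit was higher by 0.49 at 24 h and by 0.13 at 72 h. Aurka, which matures spindle poles, differed by 0.05, -0.07 and -0.17, and Nek2, which separates centrosomes, by 0.12, -0.05 and -0.10.

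Of the spindle checkpoint genes, Bub3 and Mad2l1 were highest at 24 h and lower than the control later. Bub3, which binds kinetochores with BUB1 and BUBR1, read 678, 784, 562 and 571, differences of 0.20, -0.26 and -0.23. Its second probe set above the level limit differed by 0.21, -0.05 and -0.05. Mad2l1, which encodes the APC/C inhibitor MAD2, read 81.4, 94.9, 58.4 and 67.6, differences of 0.16, -0.33 and -0.19. Bub1b, which encodes BUBR1, had a difference of -0.01 at each time, with 107 on all 3 arrays off doxycycline, although its second probe set above the level limit was 0.28 higher at 24 h. Ttk, the kinase that starts the checkpoint, was dim and differed by 0.14, 0.14 and 0.18.

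Another 5 genes were grouped around the start of anaphase, though not all of them promote it. Of these, 1 of 5 was above the control at 24 h, against 49.0% of the genes kept. At 48 h 4 of 5 were below it, against 45.5%, and likewise 4 of 5 at 72 h, against 43.7%. Ube2c, which encodes the ubiquitin-conjugating enzyme of the APC/C, was the lowest member at 72 h: it read 104, 95.2, 62.5 and 57.8, with differences of -0.10, -0.53 and -0.60. Both later arrays were well below the control and the 24 h array. Cdc20, an activator of the APC/C, read 139, 128.1, 118 and 116, but its other probe sets differed by 0.40 and -0.06 at 24 h, and by -0.04 and 0.17 at 48 h. Pttg1, which encodes securin, the inhibitor of separase, read 419, 358, 356 and 356, a difference of -0.21 or -0.22 at each time, while its other probe sets differed by -0.05 to 0.13. Espl1, which encodes separase, was dim and differed by 0.07, 0.00 and -0.01. Cdca3, linked to destruction of the CDK1 inhibitor WEE1, differed by 0.00, -0.08 and 0.00.

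The chromosomal passenger complex corrects wrong attachments to the spindle. All 4 of its genes were above the control at 24 h, as were 28 of 40 members and 49.0% of the genes kept. Aurkb, its kinase, read 38.0, 59.98, 40.8 and 43.3, a difference of 0.39 at 24 h and of 0.06 and 0.10 later, in an _x_at probe set. Cdca8, which encodes borealin, read 76.3, 111, 82.1 and 78.7, a difference of 0.40 at 24 h, but a dimmer probe set lay 0.21 below the control at that time and 0.47 below it at 48 h. Birc5, which encodes survivin, read 119, 139, 80.8 and 99.99, differences of 0.19, -0.42 and -0.19. Incenp, the scaffold, differed by 0.14, -0.26 and 0.05, and its next brightest probe set by 0.17, -0.05 and 0.00. From 24 to 48 h all 4 genes were lower, as were 33 of 40 members and 44.3% of the genes kept. The median of the 4 genes was -0.37.

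Of the centromere and kinetochore genes, 4 of 5 were above the control at 24 h, against 49.0% of the genes kept. Cenpe, a kinesin that brings chromosomes to the spindle equator, read 42.3, 69.4, 42.3 and 42.3, a difference of 0.45 at 24 h and the same deposited value on the other 3 arrays. Cenpa, the histone variant of centromeres, differed by 0.21, -0.17 and -0.04, and Cenpf by 0.12, 0.23 and 0.12. Nuf2 and Ndc80 are subunits of one microtubule-binding complex and went different ways: Nuf2 read 29.9, 41.2, 31.8 and 31.8 (0.24, 0.04 and 0.04), and Ndc80 read 53.3, 43.2, 41.1 and 44.7 (-0.18, -0.22 and -0.15).

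The 4 other kinesins kept, without Cenpe, had a median difference of -0.05, -0.05 and -0.03 at 24, 48 and 72 h. Kif23, the kinesin of the central spindle, read 106, 81.7, 81.3 and 100.1, so that it was lowest at 24 and 48 h, by -0.28 at each. Kif11, which pushes spindle poles apart, Kif2c, which shortens microtubules, and Kif4, a chromosome-bound kinesin, differed by 0.00, 0.02 and -0.09 at 24 h. At 72 h the same 3 genes differed by 0.02, 0.00 and -0.15. Of the other Kif2c probe sets above the level limit, 1 of the _x_at kind was higher by 0.34 at 24 h and the other by 0.05.

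The spindle-bundling genes Tpx2, Nusap1 and Prc1 were above the control at 24 h and again at 72 h, as were 49.0% and 46.8% of the genes kept. Tpx2, which activates Aurora A, read 120, 144, 154 and 144, differences of 0.21, 0.29 and 0.21, and a second bright probe set had 0.22, 0.37 and 0.28. The dimmer probe sets of Tpx2 were higher by 0.17 and 0.14 at 24 h but lay between -0.04 and 0.06 later. Nusap1 differed by 0.31, 0.15 and 0.06. Prc1, which crosslinks microtubules of the central spindle, differed by 0.12, 0.00 and 0.08, and its other probe set by 0.00, 0.06 and 0.19.

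The brightest probe sets of Anln and Racgap1, the 2 genes kept under cytokinesis, were below the control at 48 and 72 h. Their other probe sets did not all follow. Anln, which encodes the actin-binding scaffold anillin, read 156, 167, 95.9 and 104, differences of 0.08, -0.56 and -0.47, so the later arrays stood apart from the first pair. Its other probe set was dim and differed by -0.05, 0.05 and -0.11. Racgap1, which acts with the kinesin of Kif23, differed by -0.13, -0.20 and -0.20, but its second probe set above the level limit was at 0.28, 0.15 and 0.17.

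**Figure D3:**
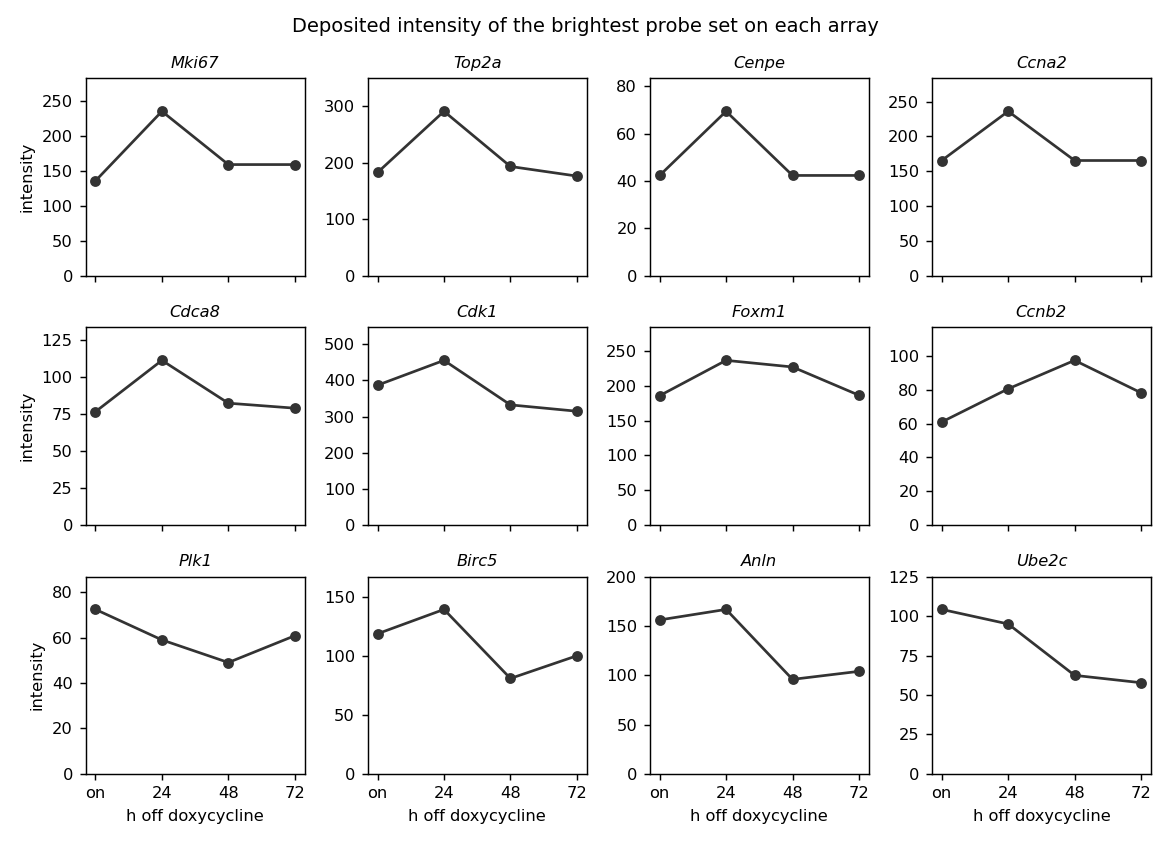
Deposited intensity (y axis, linear, from 0) of the brightest probe set of 12 members on the control array and 24, 48 and 72 h off doxycycline (x axis), 1 array per point. Mki67, Top2a, Cenpe, Ccna2 and Cdca8 peak at 24 h, at 235, 291, 69.4, 236 and 111, while Anln and Ube2c are lowest at 48 and 72 h.

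Different probe sets of one gene were compared within each array, as they are meant to read the same gene. Beyond those marked above, some are of the _x_at or _s_at kinds, which can match other genes. Among these are the brightest of Incenp, Bub3, Cdca8, Pttg1 and Prc1, and dimmer ones of Foxm1, Tpx2, Bub1b, Plk4, Cdca8 and Cdc20. Of 17 members with at least 2 probe sets above the level limit, the differences at 24 h all had one sign in 9, and 5 had a probe set of the opposite sign to the brightest. At 48 h these numbers were 6 and 8, and at 72 h 4 and 8. The 23 other probe sets of these genes, which enter no count or median of members, had a median of 0.14 at 24 h with 16 above the control and 4 below it. Their medians were 0.00 at 48 h, with 11 above and 11 below, and 0.02 at 72 h, with 13 above and 8 below. Over all 98 probe sets of the 43 genes, including dim ones, the median at 24 h was 0.03. Of these, 57 were above and 31 below the control at 24 h, and none differed by 1 at any time. Shares over all probe sets on the arrays were not computed. Of the genes kept, by their brightest probe sets, 49.0% were above the control at 24 h and 43.0% below it. These shares were 45.3% and 45.5% at 48 h, and 46.8% and 43.7% at 72 h.

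**Figure D4:**
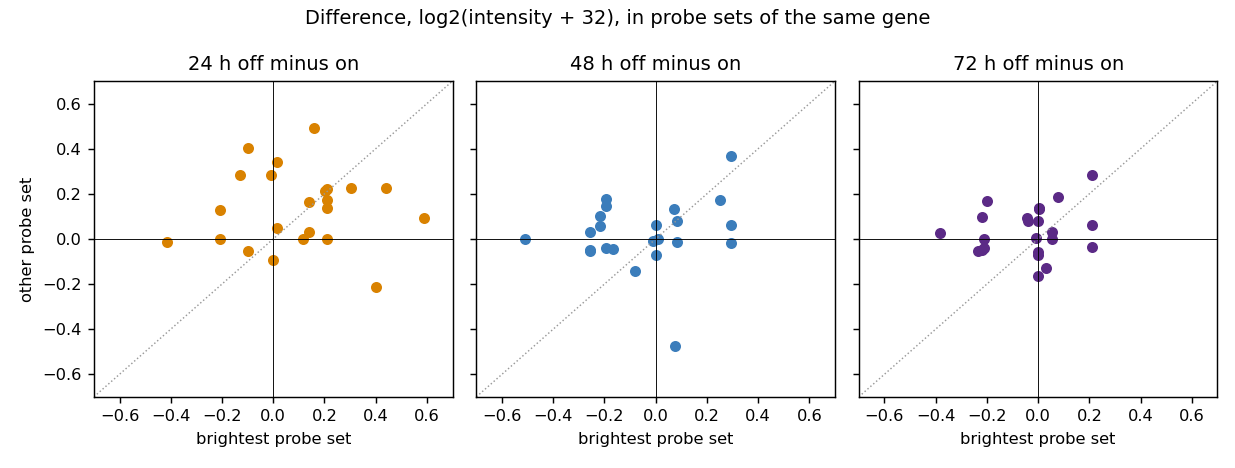
Difference from the control array, on the log2(intensity + 32) scale, of the brightest probe set (x axis) and of each other probe set above the level limit (y axis) of the same gene, at 24, 48 and 72 h off doxycycline. The dotted line marks equality. At 24 h, 16 of 23 points lie above 0 on the y axis, while at 48 h 11 do. Of the genes kept, by their brightest probe sets, 49.0% and 45.3% were above the control at these times.

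Other mitosis genes were a list of 64 further genes of the spindle, kinetochore and chromosomes, of which 46 were kept. They also lay mostly above the control at 24 h. At 24 h 31 were above the control (67.4%, against 49.0% of the genes kept) and 11 below (23.9%, against 43.0%). The median was 0.08 at 24 h, and the medians at 48 and 72 h were 0.00. At 48 h 22 were above the control and 21 below it, against 13 and 23 of the 40 G2/M genes. Of the genes kept, 45.3% were above it and 45.5% below it at 48 h. From 24 to 48 h 58.7% of the list were lower, against 82.5% of the G2/M genes and 44.3% of the genes kept. Of this list, only Lmnb1 was higher by at least 0.5 at 24 h, at 0.64 (against 2.17% of the genes kept). It encodes lamin B1 of the nuclear envelope. Cks1b, whose small product binds cyclin-dependent kinases, read 362, 506, 217 and 241, a difference of 0.45 at 24 h and of -0.66 and -0.53 later, and from 24 to 48 h it was lower by 1.11. Both were singled out after their values were seen. Of 14 condensin and cohesin genes kept, which hold and compact chromosomes, 12 were above the control at 24 h (85.7%, against 49.0%), with a median of 0.24.

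S phase genes, which act one step earlier in the cycle, had a larger median difference at 24 h. The median difference was 0.13 in the G2/M genes, against 0.54 in the S phase genes. Of these, 25 of 32 were kept and 23 were above the control (92.0%, against 49.0% of the genes kept). Higher by at least 0.5 were 2 of 40 G2/M genes, against 13 of 25 S phase genes and 2.17% of the genes kept. Rrm2, a subunit of ribonucleotide reductase, read 64.3, 244, 57.7 and 65.5, and Mcm6, of the replicative helicase, 115, 293, 142 and 138, so that both were far higher on the 24 h array than on the others. Mcm2, also of the helicase, Cdt1, which loads it, and Uhrf1, which maintains DNA methylation, were higher by 0.74, 0.72 and 0.59 at 24 h and lower at 72 h by -0.47, -0.35 and -0.43. Later medians were -0.05 and -0.01 in the G2/M genes at 48 and 72 h, against 0.00 and -0.06 in the S phase genes. The lists were not tested against each other.

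**Figure D5:**
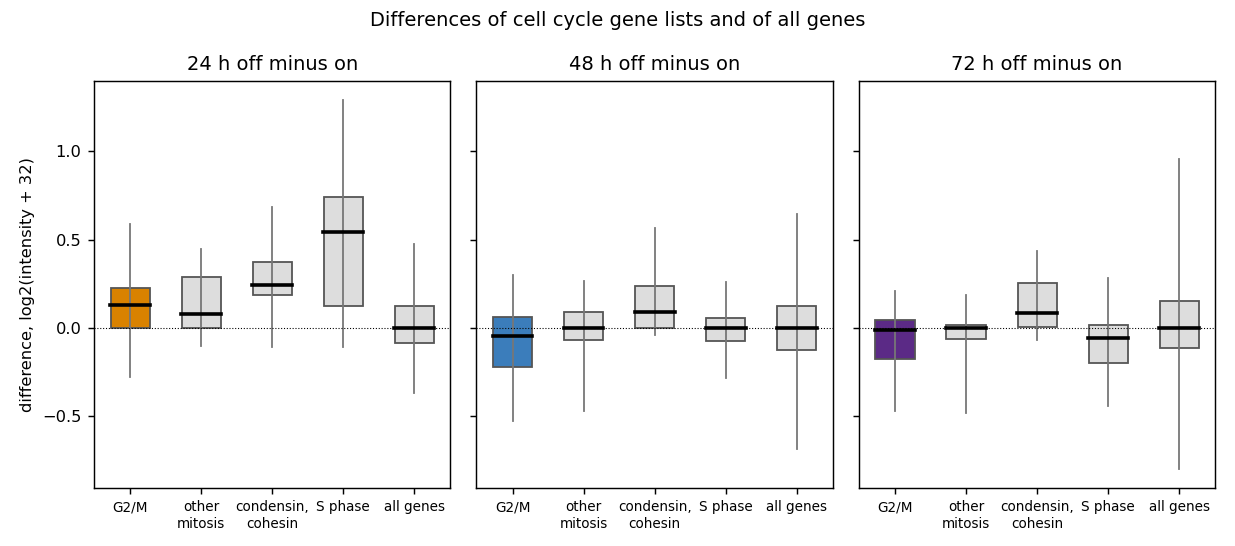
Difference from the control array (y axis, log2(intensity + 32)) at 24, 48 and 72 h off doxycycline for the 40 G2/M genes (coloured), 46 other mitosis genes, 14 condensin and cohesin genes, 25 S phase genes and all 13522 genes kept. Black lines are medians, boxes hold the central quartiles and thin lines run from the 2.5th to the 97.5th percentile. Medians at 24 h are 0.13 for the G2/M genes, 0.54 for the S phase genes and 0.00 for all genes.

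Differences were also set out by the CHR letters, without a test. The 25 kept members whose promoter held them had median differences of 0.05, -0.08 and -0.04 at 24, 48 and 72 h, and the 9 without them 0.16, -0.04 and 0.00. Above the control were 15, 7 and 7 of the first and 8, 3 and 4 of the others, against 49.0%, 45.3% and 46.8% of the genes kept.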

How the data were processed

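RNA of 4 tumours was measured on Affymetrix mouse arrays, with biotin-labelled cRNA made from 10 ug of total RNA, per the labels' protocols. The deposited values are linear intensities, 1 for each probe set on each array. MAS5 and RMA appear in the submitters' processing notes, but the sources used here do not say which of them gave these values or how arrays were scaled. Of 45037 probe sets, 34945 had 1 symbol in the platform annotation, 932 had several and 9160 were not listed, and only the first kind was used. Exactly equal values on at least 2 arrays occurred in 48.0% of probe sets, in 36.8% of the genes kept and in 15 of 40 members (37.5%); such ties shrink differences, and their origin is unknown.

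For each gene the brightest probe set by its 4-array mean was taken, and log2 of the deposited intensity plus 32 was compared between arrays, with no further normalization and no p-value. Arrays were grouped by the treatment in the labels. All members were named. Of other lists, genes with a difference of at least 1 from the control or between 24 and 72 h were to be named; those that it picked among markers of other cell types than melanocytes are given only within sums. The members and lists were chosen with earlier results of these data known. The computation of differences was checked on simulated data with known shifts. Promoter letters were searched on both strands. One promoter stretch is not reported here. Python 3.11.15, pandas 2.3.3, NumPy 2.4.6 and matplotlib 3.10.9 were used. Alternatives were 2 scalings, 2 level filters, 2 probe set choices, 3 pseudocounts and the removal of ties.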

Additional observations from a re-analysis of the deposited data

How the results depend on the processing

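The median differences of the G2/M genes moved by less than 0.1 under all 10 alternatives. They lay between 0.06 and 0.20 at 24 h, -0.09 and -0.01 at 48 h, -0.07 and 0.00 at 72 h, and -0.22 and -0.07 for 72 h against 24 h. Counts of genes past 0.5 are small and moved most with the pseudocount. With none, 6 members were higher and 1 lower at 24 h (2 and 0 as reported), 1 higher and 5 lower at 48 h (0 and 3), 3 lower at 72 h (1), and 7 lower from 24 to 72 h (3). With a pseudocount of 8, 4 were higher and 1 lower at 24 h, 1 higher at 48 h, 3 lower at 72 h and 6 lower from 24 to 72 h. With a pseudocount 4 times as large, 0 were higher at 24 h and 0 lower at 48 h, at 72 h or from 24 to 72 h. With the mean over probe sets, 1 was higher at 24 h, 1 lower at 48 h and 1 lower from 24 to 72 h. Quantile normalization gave 2 lower at 72 h, and median centring 5 lower from 24 to 72 h. A pseudocount sets by construction how far dim genes are shrunk; for the other settings the cause was not tested. Where only 0.5 is passed, the count is not firm. No paired analysis was possible because each condition has 1 array, and no array could be left out for the same reason. Signals of members near the level limit are close to the median intensity of an array, which limits what can be seen in them.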

Other observations

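The genes of the machinery that regulates this group had small median differences. Of the 17 E2F, RB and MuvB regulators kept, 11 were above the control at 24 h (64.7%, against 49.0% of the genes kept). Their medians were 0.07, -0.01 and 0.00 at 24, 48 and 72 h. None differed by 0.5 from the control at any of these times, which few genes did. Of the genes kept, 2.17% were higher and 0.932% lower by that much at 24 h. These shares were 4.51% and 4.75% at 48 h, and 8.32% and 5.52% at 72 h. The widest step was that of Rbl2, which encodes the RB-like protein p130 of the DREAM repressor: it read 71.5, 61.1, 113 and 104 on doxycycline and at 24, 48 and 72 h, which is 0.64 higher at 48 h than at 24 h. Mybl2, which encodes B-MYB, was too dim to be kept. Rbl2 and Mybl2 were chosen after their values were seen.

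Of 15 APC/C subunits and partners, 12, 10 and 13 were above the control at 24, 48 and 72 h, against 49.0%, 45.3% and 46.8% of the genes kept, with medians of 0.09, 0.07 and 0.06. At 72 h Anapc5, a subunit of the complex, was the only one higher by at least 0.5, at 0.51, and Ube2s the only one lower by that much. Ube2c, which starts ubiquitin chains on APC/C targets, differed by -0.10, -0.53 and -0.60, against 0.08, -0.35 and -0.58 in Ube2s, the enzyme that extends them. Anapc5 and Ube2s were singled out after their values were seen, and their probe sets are of the _x_at and _s_at kinds, which can match other genes.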
